A study of Mus musculus with 20 samples.

Results

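The genes described here encode secretory proteins of the male accessory glands and the epididymis, namely Svs4, Svs2 and Svs5 of the seminal vesicle, Pate4, and the epididymal lipocalin Lcn8. Every probe set annotated to exactly 1 of these 5 symbols was taken, whatever its value, which gave 5 of the 18193 genes named on the array and 10 of the 45037 probe sets tested: 1 each for Svs4, Pate4 and Lcn8, 2 for Svs2 and 5 for Svs5. Expression was read on mouse Affymetrix arrays, 1 array for the thymus of 1 male mouse aged 3 to 4.5 weeks, in epithelial cells sorted as CD45 negative, stained by the EpCAM antibody G8.8, with intermediate Ly51 and abundant MHC class II. The 6 groups were Aire knockout (KO) and Aire wild-type (WT) mice on 3 inbred backgrounds, with 3 KO and 3 WT mice in B6, 4 KO and 4 WT mice in BALB, and 3 KO and 3 WT mice in NOD. The labels give no other allele and no treatment for any group, and they do not describe the knockout allele. The series title places the effect of Aire in individual mice of different genetic backgrounds as its subject.

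Aire is a transcriptional regulator of medullary thymic epithelial cells, known for the expression of genes of peripheral organs in the thymus, where their products are shown to developing T cells. The seminal vesicle secretes a small set of abundant, androgen-dependent proteins that are joined by transglutaminase into the copulatory plug, and their genes lie together with those of whey acidic protein (WAP) type protease inhibitors. The epididymis secretes, segment by segment, lipocalins and other proteins that bathe maturing sperm. In sorted thymic epithelium, transcripts of these organs belong to the peripheral-tissue genes.

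All 5 genes had at least 1 probe set that was lower in KO mice when the 3 strains were averaged. The fall was 11.6-fold for Svs4, 3.23-fold for Lcn8, 2.44-fold for Pate4 and 1.93-fold for the Svs5 probe set that moved most. It also passed for 1 of the Svs2 probe sets, whose KO readings lay at the bottom of the scale and give no firm fold. The other folds depend on the scale too. Adding 16 units to every value before the log2 gave averaged differences of -2.78 for Svs4, -1.39 for Lcn8, -0.93 for Pate4 and -0.67 for that Svs5 probe set. Without the addition they were -3.54, -1.69, -1.29 and -0.95. Of the 10 probe sets 7 were lower, 0 were higher and 3 did not pass (limma, Benjamini-Hochberg adjusted p under 0.05), and 4 of them, the Svs2 probe set included, had fitted falls of at least 2-fold. Over all 45037 probe sets the same test called 10.1% lower and 10.5% higher in KO mice. The median log2 difference was -0.75 over the 10 probe sets and 0.06 over all probe sets tested.

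RefSeq placed Svs2, Svs4 and Svs5 in 1 cluster of mouse chromosome 2, at chr2:164235929-164238341, chr2:164275956-164278307 and chr2:164332765-164334394 on build GRCm38.p6. Lcn8 lay elsewhere on that chromosome at chr2:25653118-25656217, and Pate4 on chromosome 9 at chr9:35607093-35611885. Promoter windows of RefSeq, 250 bases before to 50 bases after the annotated gene start, were on hand for 4 of the 5 genes. Each is shown 5′ to 3′ on the strand of its gene. Capitals mark matches to the TATA motif TATAAA or to AGAACA, part of the androgen receptor element, on either strand.
Svs4 promoter, chr2:164278258-164278557, minus strand: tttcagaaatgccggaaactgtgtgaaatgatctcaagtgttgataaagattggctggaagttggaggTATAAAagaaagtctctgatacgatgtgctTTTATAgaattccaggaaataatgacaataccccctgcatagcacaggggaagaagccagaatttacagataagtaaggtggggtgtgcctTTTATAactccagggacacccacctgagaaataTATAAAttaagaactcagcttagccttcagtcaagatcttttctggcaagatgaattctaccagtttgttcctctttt
Svs2 promoter, chr2:164238292-164238591, minus strand: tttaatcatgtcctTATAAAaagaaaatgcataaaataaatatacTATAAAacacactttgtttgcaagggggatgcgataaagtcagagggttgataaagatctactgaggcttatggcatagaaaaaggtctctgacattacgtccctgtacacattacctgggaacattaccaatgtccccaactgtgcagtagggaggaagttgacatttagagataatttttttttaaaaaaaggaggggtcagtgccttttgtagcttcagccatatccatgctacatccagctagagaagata
Svs5 promoter, chr2:164332515-164332814, plus strand: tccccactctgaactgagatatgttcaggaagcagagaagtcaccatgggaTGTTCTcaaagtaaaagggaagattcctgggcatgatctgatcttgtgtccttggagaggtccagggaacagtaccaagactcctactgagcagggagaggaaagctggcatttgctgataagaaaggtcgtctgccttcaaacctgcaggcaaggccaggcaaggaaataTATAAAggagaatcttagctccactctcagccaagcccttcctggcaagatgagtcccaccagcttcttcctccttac
Lcn8 promoter, chr2:25652868-25653167, plus strand: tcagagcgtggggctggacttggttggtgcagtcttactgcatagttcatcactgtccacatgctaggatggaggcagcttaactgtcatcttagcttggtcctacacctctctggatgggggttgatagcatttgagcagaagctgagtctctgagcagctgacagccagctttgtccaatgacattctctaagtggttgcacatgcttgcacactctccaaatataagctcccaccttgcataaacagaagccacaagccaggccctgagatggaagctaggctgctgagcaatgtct

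TATAAA occurred in the windows of Svs4, Svs2 and Svs5 and not in that of Lcn8. Only exact matches were looked for, and the Lcn8 window holds the near match tataag. In Svs4 and Svs5 a match began at base -28 from the start, and Svs4 had further matches at -182 on the plus strand and at -152 and -61 on the opposite strand. In Svs2 the matches lay farther away, at -236 and -205. Of all 32851 promoter windows 13.6% held TATAAA on either strand. AGAACA was present only in the Svs5 window, at -199 on the opposite strand, and 19% of all windows held it. The windows were poor in CG pairs, with 2 each in Svs4 and Svs2 and 1 each in Svs5 and Lcn8, against a median of 7 over all windows, and 23.3% of all windows had 2 or fewer. The longest identical stretches between the Svs4 and Svs5 windows were gaaatatataaa, at -34 in both genes and holding the TATA match, and ctggcaagatga just after both starts, each found in 5 of the 32851 windows. Svs4 and Svs2 shared gttgataaagat, at -211 and -159, found in 2 of the 32851 windows. The longest stretch shared with the Lcn8 window was 9 bases. A match is a string of letters in a window and not a measured binding site.

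**Figure D1:**
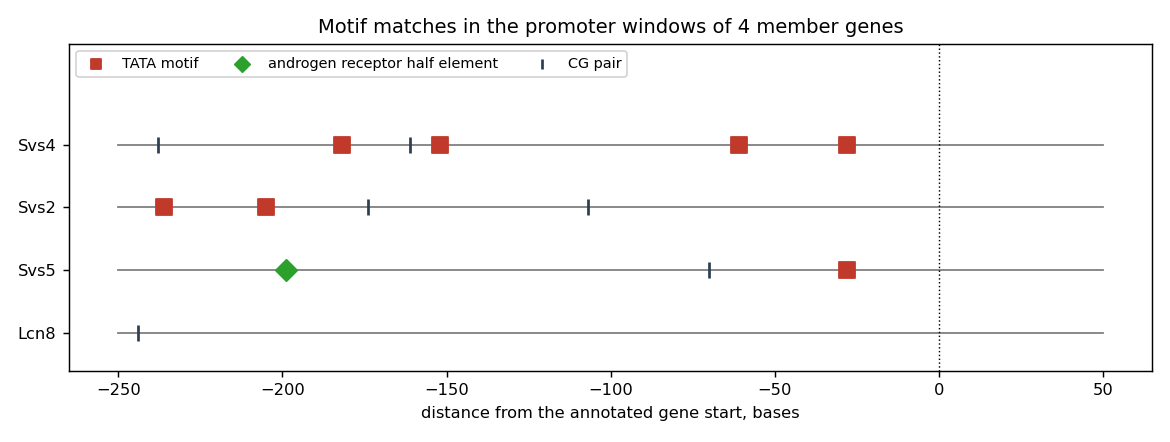
Positions of motif matches on either strand in the promoter windows of Svs4, Svs2, Svs5 and Lcn8 (1 line per gene); the horizontal axis is the distance from the annotated gene start in bases. Squares mark TATAAA, the diamond marks AGAACA and ticks mark CG pairs. Svs4 and Svs5 share a TATA match at -28, Svs2 has its matches at -236 and -205, and Lcn8 has no exact match to TATAAA.

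The arrays were alike in overall signal, with medians between 86.3 and 90.9 intensity units. The Aire probe set read 2866 to 3013 units in KO against 1608 to 1799 units in WT mice of B6, 1482 to 2351 against 633 to 1672 in BALB, and 3560 to 4200 against 1997 to 2795 in NOD. It was higher in mice labelled KO (averaged log2 difference 0.74 ± 0.14 SE, limma adjusted p = 0.00104). No source used here says whether its probes fall inside the region removed by the knockout, so the reading is no check of the genotype labels. All 12 listed markers of mature medullary epithelium were measured, and their mean log2 intensity was far above the median of 6.48 over all values. It was 11.12 to 11.57 in KO against 10.98 to 11.37 in WT mice of B6, 11.05 to 11.28 against 10.80 to 11.02 in BALB and 11.08 to 11.21 against 10.93 to 11.06 in NOD. By this mean KO mice lay above WT mice without overlap in BALB and NOD. The list holds Aire itself, and in the average of strains Aire, Cd80 (0.85) and H2-Ab1 (0.22) passed as higher. Krt14 (-0.44) passed as lower, and the others of the list did not pass. The mean was not taken without Aire. Markers of other cells moved with genotype in part. Thymocyte markers (7 of 8 measured) averaged 6.91 to 7.08 in KO against 7.16 to 7.35 in WT mice of B6, 6.90 to 7.21 against 7.14 to 7.44 in BALB and 6.79 to 7.69 against 7.23 to 8.16 in NOD. Those of dendritic cells and macrophages (7 of 7) averaged 7.71 to 8.39 in KO against 8.47 to 8.69 in WT mice of B6 and overlapped between genotypes in BALB and NOD. Between same-numbered NOD mice, taken as pairs, they were lower in KO in all 3, at 7.81 against 8.01, 8.70 against 9.29 and 9.35 against 9.93. In the BALB pairs they were lower in KO except for mouse 4, at 9.01 against 8.72. The genes of this list moved unevenly. In B6 Adgre1 (-1.52), Csf1r (-1.37) and Ptprc (-0.75) were lower and Cd68 (0.34) higher. Itgax (-0.13), Itgam (-0.09) and Lyz2 (0.005) moved little there, and none of the list passed in B6. In the average of strains only Adgre1 (-1.38) passed. Thymocyte markers were lower in KO in every BALB and NOD pair. Endothelial markers (4 of 4) averaged higher in KO mice of B6, at 6.56 to 6.80 against 6.33 to 6.51 in WT mice. The mean of fibroblast markers (6 of 6) was lower in KO mice of NOD, at 7.0 to 7.21 against 7.24 to 7.46 in WT mice. That mean hides opposite moves. In NOD Col1a1 (-0.83), Col1a2 (-0.80) and Col3a1 (-1.155) were lower, and Pdgfra (0.13), Lum (0.39) and Dcn (0.85) higher. In the average of strains all of them passed, in these same opposite directions. By their means, markers of cortical epithelium (6 of 6 measured) and B cells (3 of 4) overlapped between genotypes in every strain. Between paired mice those of B cells were lower in KO in every NOD pair, at 6.83 against 7.12, 6.83 against 7.29 and 7.32 against 7.68. They were mixed in sign in BALB, and those of cortical epithelium were mixed in both strains. Of the B cell genes in NOD, Ms4a1 (-1.32) was lower, while Cd79b (0.19) and Cd79a (0.02) were not. No B cell gene passed in any strain or in the average. The cortical mean hides opposite moves, since in the average of strains Ctsl (-0.78) passed as lower and Ly75 (0.52) as higher. In B6 Ccl25 (0.85) passed as higher, and the other cortical genes did not pass. Intensities on this scale are never 0, and the part of these cells in the results below was not tested. In sorted bulk cells, fewer cells expressing a gene and less RNA per cell cannot be told apart.

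Svs4, a small basic protein of seminal vesicle fluid whose rat counterpart is known for anti-inflammatory activity, showed the widest separation of the members. Its probe set (1427222_a_at) read 16.5, 17.1 and 17.6 units in B6 KO mice, against 367, 154 and 277 units in B6 WT mice. BALB KO mice had 18.8, 19.7, 29.4 and 21.9 units, against 246, 259, 339 and 151 units in BALB WT mice. All KO mice of both strains stayed at or below 29.4 units, while WT mice of each strain differed more than 2-fold among themselves. In NOD it read 20.5, 20.7 and 17.7 units in KO mice, against 162, 167 and 275 units in WT mice. The genotypes did not overlap in any strain, and the highest KO mouse (29.4 units) stood well below the lowest WT mouse (151 units). The log2 difference averaged over strains was -3.54 ± 0.16 (SE, limma adjusted p = 4.00e-11). It was -3.87 ± 0.29 in B6, a 14.7-fold fall, -3.43 ± 0.26 in BALB, a 10.8-fold fall, and -3.32 ± 0.29 in NOD, a 9.97-fold fall, with adjusted p of 1.21e-07, 1.15e-07 and 1.21e-06. Within the 5 sets of KO and WT mice that share a strain and a run of sample codes in the labels, the difference was -3.71 to -2.98. On the log2(value + 16) scale the averaged difference was -2.78 (limma adjusted p = 1.2e-09).

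Svs2, the main clotting protein of the mouse copulatory plug, was read by a pair of probe sets that disagreed. The probe set 1422427_a_at read 9.78, 9.10 and 9.24 units in B6 KO mice, against 36.7, 34.4 and 38.5 units in B6 WT mice. In BALB it read 9.21, 8.58, 8.95 and 8.34 units in KO mice, against 42.9, 54.8, 61.3 and 12.7 units in WT mice. BALB WT mouse 4 thus stood far below the other 3 WT mice, though still above every KO mouse. In NOD it read 9.88, 9.51 and 8.81 units in KO mice, against 10.1, 27.4 and 30.0 units in WT mice, and here WT mouse 1 lay next to the KO mice. All 10 KO mice were below all 10 WT mice, but the gap between the highest KO mouse and the lowest WT mouse was 9.88 against 10.1 units. The lowest 5% of all values of the study lay at or below 13.6 units, so the KO readings and both of these low WT readings are at the bottom of the scale. The averaged log2 difference of Svs2 was -1.71 ± 0.24 (SE, limma adjusted p = 3.97e-05). On the log2(value + 16) scale it was -0.92 (adjusted p = 0.000219), so its size depends on how the bottom of the scale is treated. It was -1.96 ± 0.43 in B6 (adjusted p = 0.00641) and -2.07 ± 0.38 in BALB (adjusted p = 0.00162). In NOD the difference of -1.11 ± 0.43 did not pass (adjusted p = 0.226). Without NOD WT mouse 1 it was -1.61 (adjusted p = 0.0319), and without BALB WT mouse 4, whose spread enters the pooled estimate, it was -1.11 (adjusted p = 0.0229). Within sets sharing strain and code run the Svs2 difference was -2.45 to -0.03, the smallest being that of the single NOD pair that holds WT mouse 1.

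The other Svs2 probe set, 1456188_at, read 39.8, 42.9 and 41.1 units in B6 KO mice against 42.1, 40.9 and 40.6 units in B6 WT mice, and the genotypes overlapped. BALB KO mice had 43.4, 48.8, 40.9 and 44.4 units against 47.7, 53.4, 41.4 and 45.2 units in BALB WT mice, again with overlap. In NOD the KO mice, at 46.4, 45.3 and 43.8 units, lay above the WT mice, at 42.6, 37.4 and 41.1 units. Its averaged log2 difference was 0.03 ± 0.05 (SE, limma adjusted p = 0.718), and no strain passed. Taking the mean of both probe sets as the Svs2 level gave -0.84 averaged over strains (adjusted p = 7.03e-05). No source used here says which part of the transcript each probe set reads, and Svs2 values depend on the probe set chosen.

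Svs5, a further seminal vesicle secretory protein of the cluster, was covered by 5 probe sets that split into those that fell and those that did not. The probe set 1456124_x_at fell most. It read 24.0, 32.3 and 28.6 units in B6 KO mice, against 49.4, 53.1 and 57.2 units in B6 WT mice. In BALB it read 27.3, 26.4, 27.1 and 26.3 units in KO mice, against 94.3, 40.1, 57.3 and 47.6 units in WT mice. The BALB KO mice lay between 26.3 and 27.3 units, and BALB WT mouse 1 stood above all other mice. In NOD it read 29.2, 26.2 and 22.9 units in KO mice, against 33.2, 50.9 and 59.8 units in WT mice. All 10 KO mice lay below every WT mouse of the study, the nearest values being 32.3 and 33.2 units. The averaged log2 difference of Svs5 by this probe set was -0.95 ± 0.13 (SE, limma adjusted p = 4.28e-05). It was -0.92 ± 0.24 in B6 (adjusted p = 0.0214) and -1.08 ± 0.21 in BALB (adjusted p = 0.00283), and in NOD the value of -0.84 ± 0.24 did not pass (adjusted p = 0.0597). With same-numbered mice paired as a replicate block the NOD value passed (adjusted p = 0.0199), as it did without NOD WT mouse 1 (-1.09, adjusted p = 0.0125), BALB WT mouse 1 (adjusted p = 0.0106) or BALB WT mouse 2 (adjusted p = 0.0367). The B6 value lost its call without B6 WT mouse 3, B6 KO mouse 1 or B6 KO mouse 3, at adjusted p of 0.0859, 0.0652 and 0.0653.

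Of the other Svs5 probe sets, 1419347_x_at and 1438616_x_at also fell in the average. The probe set 1419347_x_at read 24.4, 26.3 and 25.6 units in B6 KO mice against 39.5, 38.4 and 32.7 units in B6 WT mice, and 24.0, 23.6 and 22.1 units in NOD KO mice against 25.6, 29.2 and 31.8 units in NOD WT mice. In BALB it read 21.1, 21.2, 15.4 and 14.6 units in KO mice against 29.9, 38.1, 34.1 and 24.4 units in WT mice, and all 10 KO mice were beneath the WT mice of their own strain. Its averaged log2 difference was -0.55 ± 0.09 (SE, limma adjusted p = 0.000216), with -0.81 ± 0.14 in BALB (adjusted p = 0.00117), while -0.53 ± 0.16 in B6 (adjusted p = 0.0511) and -0.31 ± 0.16 in NOD (adjusted p = 0.459) did not pass. The B6 value, next to the threshold, passed in 12 of 29 alternative settings, with a range of -0.62 to -0.35. The probe set 1438616_x_at read 50.5 to 58.6 units in KO against 69.8 to 88.3 units in WT mice of B6, 51.7 to 70.3 against 63.8 to 92.5 units in BALB and 54.4 to 61.4 against 71.3 to 78.2 units in NOD. Genotypes overlapped in BALB alone, and 8 of 10 KO mice were beneath every WT mouse of their own strain. Its averaged log2 difference was -0.39 ± 0.08 (SE, limma adjusted p = 0.00116), and the B6 value of -0.46 ± 0.14 passed narrowly (adjusted p = 0.0493). That call was lost in 20 of 29 alternative settings, among them without B6 WT mouse 1 (-0.34, adjusted p = 0.216). The values of -0.35 ± 0.12 in BALB (adjusted p = 0.0996) and -0.37 ± 0.14 in NOD (adjusted p = 0.201) did not pass, and without BALB WT mouse 3 the BALB value passed (-0.45, adjusted p = 0.0265).

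Svs5 probe sets with the _a_at suffix, which marks probes shared by transcripts of 1 gene, did not pass in any strain or in the average of the fit without pairing. The probe set 1419346_a_at read 33.9 to 45.2 units in KO against 35.0 to 40.9 units in WT mice of B6, 13.9 to 34.0 against 24.5 to 40.8 units in BALB, and 23.8 to 33.0 against 24.8 to 32.7 units in NOD, and its averaged log2 difference was -0.22 ± 0.15 (SE, limma adjusted p = 0.296). In BALB, where 3 of the KO mice lay below all WT mice, the difference was -0.61 ± 0.23 (adjusted p = 0.138). It passed without BALB KO mouse 2 (-0.89, adjusted p = 0.00683) and with same-numbered mice paired as a replicate block (adjusted p = 0.00387), and so did the average of strains with the block (adjusted p = 0.0428). That average also blocked B6 mice by number, and in B6 the numbers were not taken as pairs. The probe set 1427220_a_at read 31.0 to 37.9 units in KO against 22.9 to 33.0 units in WT mice of B6, 44.8 to 56.9 against 43.3 to 64.6 units in BALB and 51.7 to 80.0 against 48.1 to 60.5 units in NOD, with an averaged difference of 0.15 ± 0.10 (adjusted p = 0.29). The 3 Svs5 probe sets that fell carry the _x_at suffix, which marks probes that may also match other transcripts. Whether other transcripts add to their readings was not tested. The mean over the 5 probe sets of Svs5 was -0.39 in the average of strains (adjusted p = 0.000249), -0.31 in B6 (adjusted p = 0.128), -0.59 in BALB (adjusted p = 0.00111) and -0.28 in NOD (adjusted p = 0.286).

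**Figure D2:**
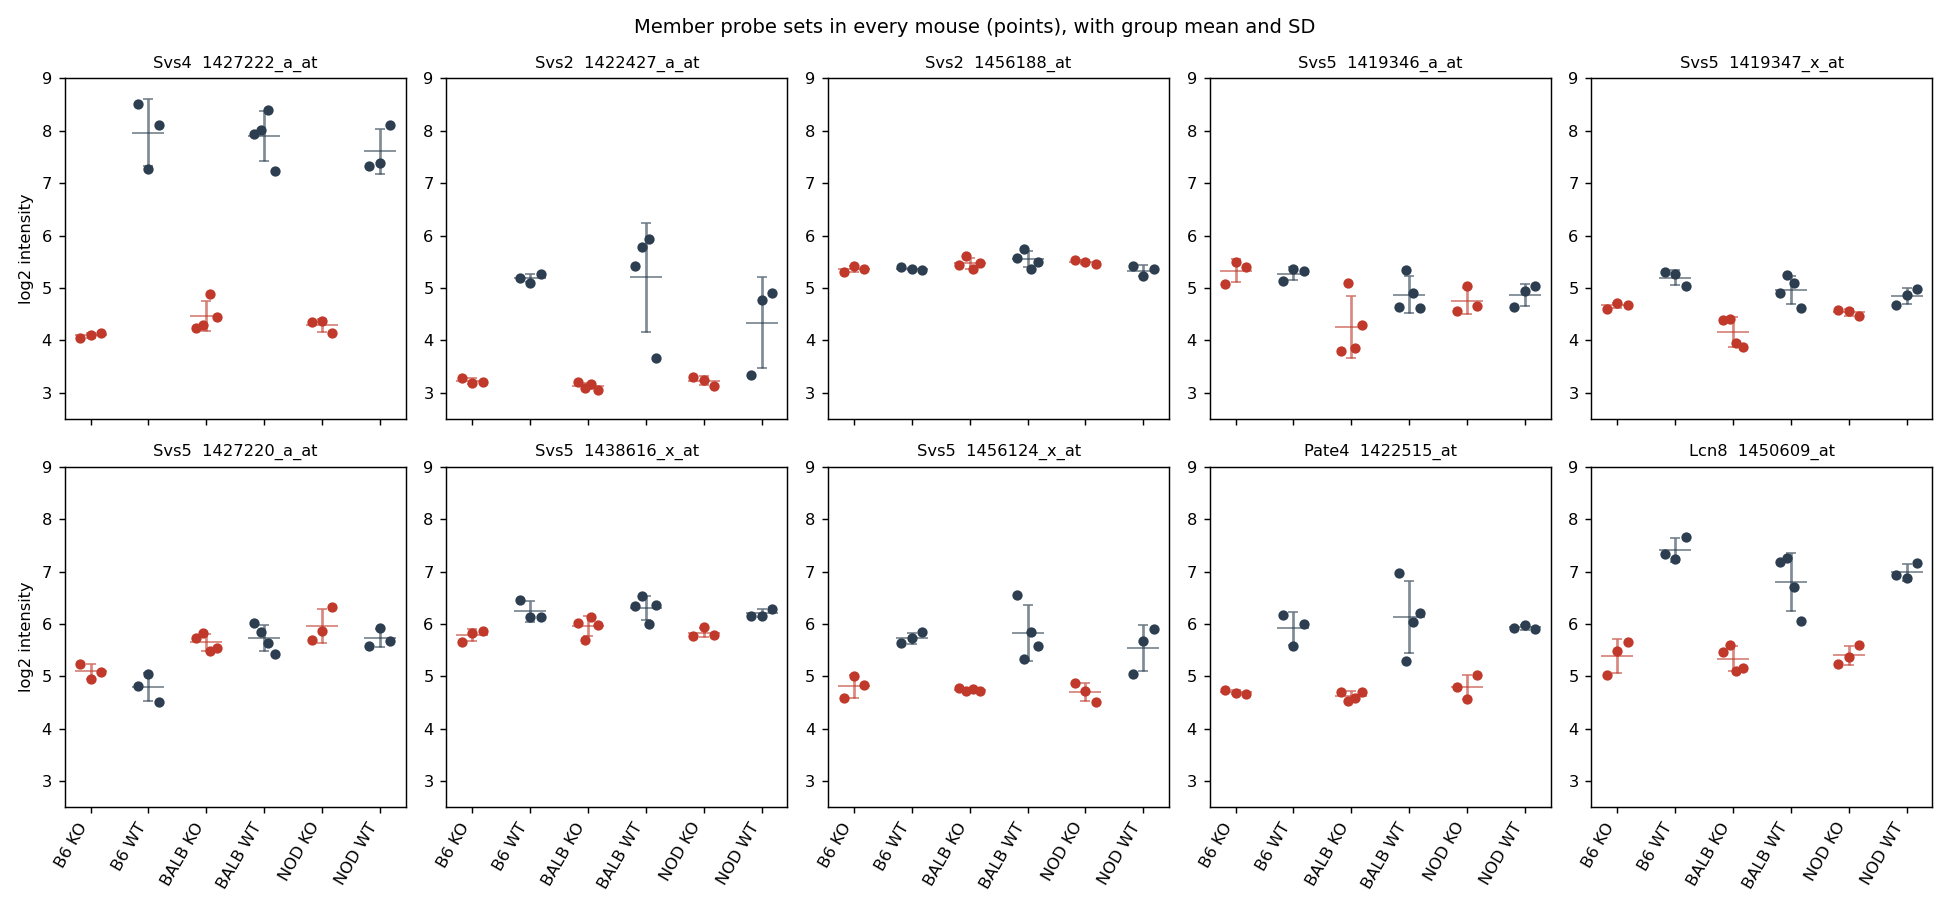
Log2 intensity (vertical axis, 1 scale for all panels) of the 10 member probe sets in every mouse, by strain with KO left of WT; points are mice and bars are the group mean ± SD. Svs4 shows the widest gap between KO and WT mice, the Svs2 probe sets 1422427_a_at and 1456188_at differ, and 1 BALB WT and 1 NOD WT mouse have low Svs2.

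Pate4, a small secreted cysteine-rich protein of the Ly6/uPAR type that is also named Svs7 for its presence in seminal vesicle fluid, fell in every strain. Its probe set (1422515_at) read 26.7, 25.8 and 25.4 units in B6 KO mice, against 72.5, 47.7 and 63.7 units in B6 WT mice. BALB KO mice had 25.9, 23.2, 23.9 and 26.0 units, against 125, 39.1, 65.7 and 74.0 units in BALB WT mice. The KO mice were nearly equal, whereas the BALB WT mice spanned more than 3-fold. In NOD it read 27.9, 23.6 and 32.4 units in KO mice, against 60.6, 63.5 and 59.5 units in WT mice. No KO mouse reached any WT mouse, the nearest values being 32.4 and 39.1 units. The averaged log2 difference of Pate4 was -1.29 ± 0.15 (SE, limma adjusted p = 3.91e-06). It was -1.22 ± 0.27 in B6 (adjusted p = 0.00594), -1.50 ± 0.23 in BALB (adjusted p = 0.000333) and -1.14 ± 0.27 in NOD (adjusted p = 0.0164). The NOD value lost its call without NOD WT mouse 2, NOD WT mouse 3, NOD KO mouse 1 or NOD KO mouse 2, with adjusted p of 0.0709, 0.0548, 0.0581 and 0.0943 and differences of -1.16 to -1.02. Within sets sharing strain and code run the Pate4 difference was -1.51 to -1.11.

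Lcn8, a lipocalin that the initial segment of the epididymis secretes and that binds small hydrophobic ligands, also fell in every strain. Its probe set (1450609_at) read 32.8, 44.5 and 50.3 units in B6 KO mice, against 162, 151 and 203 units in B6 WT mice. In BALB it read 44.1, 48.4, 34.4 and 35.8 units in KO mice, against 144, 153, 105 and 66.3 units in WT mice. BALB WT mouse 4 was again the lowest WT mouse, and it remained above all KO mice. In NOD it read 37.8, 41.3 and 48.5 units in KO mice, against 121, 117 and 144 units in WT mice. KO and WT mice did not overlap, at 50.3 units for the highest KO mouse and 66.3 units for the lowest WT mouse. The averaged log2 difference of Lcn8 was -1.69 ± 0.14 (SE, limma adjusted p = 5.26e-08). It was -2.03 ± 0.25 in B6, a 4.07-fold fall, -1.47 ± 0.21 in BALB, a 2.76-fold fall, and -1.58 ± 0.25 in NOD, a 3.00-fold fall, with adjusted p of 2.52e-05, 0.000201 and 0.00057. Within sets sharing strain and code run it was -1.89 to -1.25.

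**Figure D3:**
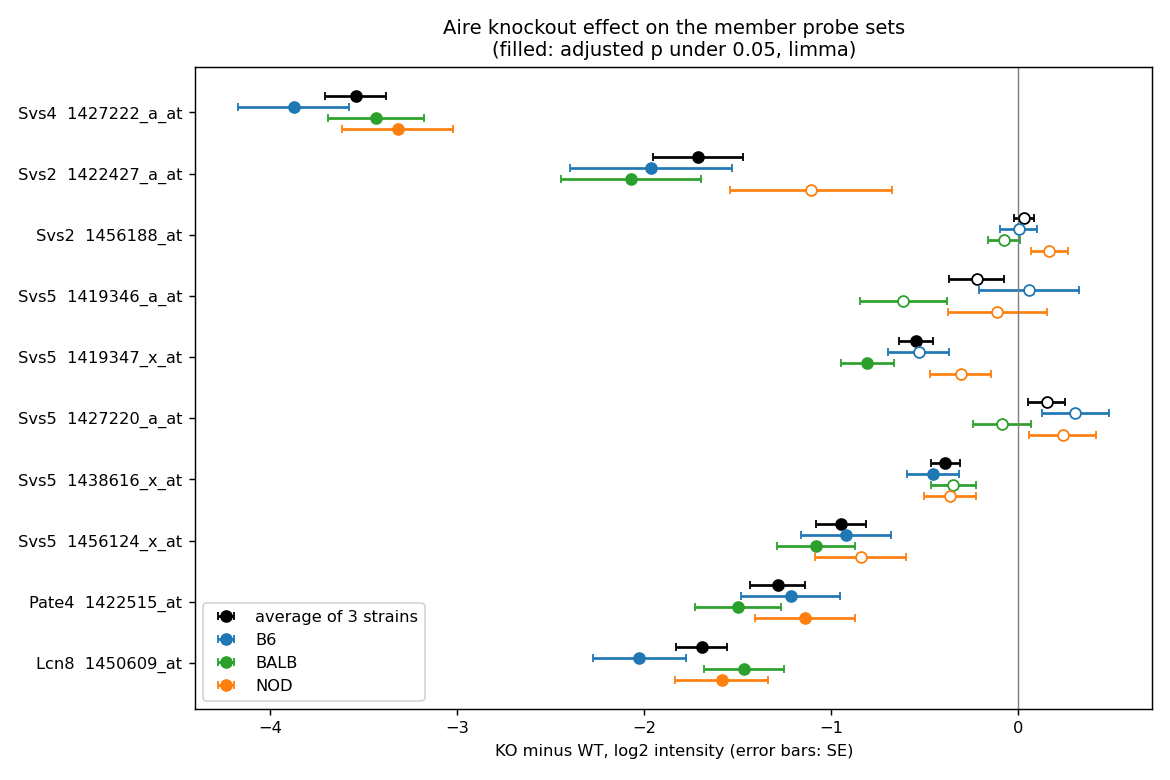
KO minus WT difference on the log2 scale (horizontal axis) for each member probe set, averaged over strains and in B6, BALB and NOD; bars are SE and filled points passed limma at an adjusted p under 0.05. Svs4 lies at -3.54 in the average, Svs2 by 1422427_a_at at -1.71, Lcn8 at -1.69 and Pate4 at -1.29, and the Svs2 probe set 1456188_at lies at 0.03.

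Taken strain by strain, 6 of the 10 probe sets were lower in KO mice of B6, 6 in BALB and 3 in NOD, where Svs4, Pate4 and Lcn8 passed. Over all probe sets 5.54% were lower in B6, 4.26% in BALB and 2.81% in NOD, which is 2495, 1920 and 1264 probe sets. With same-numbered mice paired as a replicate block these were 4978, 3896 and 2912 of 45037, though in B6 the numbers were not taken as pairs. The median log2 differences of the 10 probe sets were -0.73 in B6, -0.94 in BALB and -0.61 in NOD, against 0.07, 0.04 and 0.05 over all probe sets. Whether the knockout effect itself differed between strains was tested directly. By limma's F test 0 of the 10 probe sets passed, with 0 at an unadjusted p under 0.05 and a lowest unadjusted p of 0.0931, where 0.435% of all probe sets passed. Of the 3 pairwise differences between strains 0 passed for any member, and 1 probe set had an unadjusted p under 0.05 for NOD minus BALB (lowest 0.033). A smaller number of calls in NOD is thus not shown to be a smaller effect.

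With Aire intact the log2 level of Svs4, from low to high, was 7.61 ± 0.43 in NOD WT, 7.90 ± 0.48 in BALB WT and 7.97 ± 0.64 in B6 WT mice (mean ± SD, n = 3, 4 and 3), and neighbours in this order differed by less than their SD. Lcn8 averaged 6.80 ± 0.55 in BALB WT, 6.99 ± 0.16 in NOD WT and 7.41 ± 0.22 in B6 WT mice, and the difference of BALB minus B6, -0.61 ± 0.23 (SE), did not pass (limma adjusted p = 0.14). Pate4 averaged 6.13 ± 0.69 in BALB WT, 5.93 ± 0.05 in NOD WT and 5.92 ± 0.31 in B6 WT mice, all within the spread of BALB. Svs2 by 1422427_a_at averaged 4.34 ± 0.87 in NOD WT, 5.20 ± 1.04 in BALB WT and 5.19 ± 0.08 in B6 WT mice, and NOD minus BALB was -0.86 ± 0.41 (SE, adjusted p = 0.267). Without BALB WT mouse 4, low in Svs2, this Svs2 difference passed (-1.37, adjusted p = 0.00591). With all 20 arrays only the Svs5 probe set 1427220_a_at, which did not pass between genotypes, passed between WT mice of different strains. It averaged 5.73 ± 0.25 in BALB WT and 5.72 ± 0.17 in NOD WT mice, against 4.79 ± 0.26 in B6 WT mice. The log2 differences were 0.94 ± 0.17 for BALB minus B6 (SE, limma adjusted p = 0.00183) and 0.93 ± 0.18 for NOD minus B6 (adjusted p = 0.00296). Between WT mice, strain differences passed for 6.10% of all probe sets in BALB minus B6, 7.04% in NOD minus B6 and 6.14% in NOD minus BALB.

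Without Aire the levels of Svs4, Svs2, Pate4 and Lcn8 did not pass any test between strains. Svs4 averaged 4.47 ± 0.29 in BALB KO, 4.29 ± 0.13 in NOD KO and 4.09 ± 0.05 in B6 KO mice, Lcn8 5.40 ± 0.18 in NOD KO, 5.39 ± 0.32 in B6 KO and 5.33 ± 0.24 in BALB KO mice, and Pate4 4.79 ± 0.23 in NOD KO, 4.70 ± 0.04 in B6 KO and 4.63 ± 0.08 in BALB KO mice (log2 mean ± SD). Svs5 again differed by probe set. The probe set 1427220_a_at was higher in BALB KO mice than in B6 KO mice by 0.55 ± 0.17 (SE, limma adjusted p = 0.0392) and in NOD KO mice than in B6 KO mice by 0.87 ± 0.18 (adjusted p = 0.00418), and B6 was also the lowest strain with Aire intact. In BALB minus B6 among KO mice, 1419346_a_at (-1.07 ± 0.25, adjusted p = 0.0101) and 1419347_x_at (-0.51 ± 0.15, adjusted p = 0.0364) were lower. Between KO mice, strain differences passed for 12.2% of all probe sets in BALB minus B6, 10.0% in NOD minus B6 and 8.79% in NOD minus BALB.

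Mice of 1 group differed from each other, and for Svs4 this spread was wider in each WT group than in each KO group. The SD of log2 Svs4 values was 0.05 to 0.29 over the 3 KO groups and 0.43 to 0.64 over the 3 WT groups. For Svs2 by 1422427_a_at it was 0.06 to 0.08 in KO and 0.08 to 1.04 in WT groups, and for Pate4 it was 0.04 to 0.23 in KO and 0.05 to 0.69 in WT groups. Lcn8 had SDs of 0.18 to 0.32 in KO and 0.16 to 0.55 in WT groups, and the ranges of Svs2, Pate4 and Lcn8 overlapped between genotypes. Of the Svs5 probe sets that did not fall, 1419346_a_at had SDs of 0.22 to 0.59 in KO and 0.12 to 0.34 in WT groups and 1427220_a_at 0.15 to 0.32 in KO and 0.17 to 0.26 in WT groups. The difference in spread was not tested, and the KO readings of Svs2 lie at the bottom of the scale. Those of Svs4, 16.5 to 29.4 units, lie near the lowest 5% limit of 13.6 units. The WT mice with the lowest values were not the same for each gene. BALB WT mouse 4 had the lowest Svs4 (151 units), Svs2 (12.7 units) and Lcn8 (66.3 units) of its group, and also the lowest Svs5 by 1419346_a_at (24.5 units), 1419347_x_at (24.4 units) and 1427220_a_at (43.3 units). Its Pate4 (74.0 units) was the second highest of 4, and by 1456124_x_at (47.6 units) and 1438616_x_at (82.7 units) its Svs5 was not the lowest. This mouse also had the lowest Aire reading of all mice, 633 units, and its Gapdh 3′ minus 5′ log2 difference, a sign of RNA quality, was 3.04, the highest of the BALB mice. The highest such difference of all arrays, 3.76, was that of B6 WT mouse 1, which had the highest Svs4 (367 units) and Pate4 (72.5 units) of its group. NOD WT mouse 1 had the lowest Svs2 (10.1 units), Svs4 (162 units) and Svs5 by 1456124_x_at (33.2 units) of its group, while its Aire reading of 2795 units was the highest of its group and its Pate4 reading of 60.6 units the middle of 3. Whether Aire level or RNA quality had a part in these low readings was not tested.

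Genes next to Svs2, Svs4 and Svs5 moved unevenly along the cluster. In RefSeq order it runs Wfdc12, Wfdc15a, Wfdc15b, Svs2, Svs3b, Svs4, Svs3a, Svs6, Svs5, Slpi, Mir7678 and Matn4, of which Svs3b and Mir7678 had no probe set of a single symbol. Inside it Slpi, an antiprotease of mucosal secretions, fell by 2.27 ± 0.14 on the log2 scale (SE, limma adjusted p = 9.03e-10) in the average of strains. Wfdc15b, a WAP domain protein, fell by 0.84 ± 0.14 (adjusted p = 0.000268), Svs3a, a seminal vesicle clotting protein, fell by 0.48 ± 0.07 (adjusted p = 4.51e-05) and Svs6 passed at -0.29 ± 0.07 (adjusted p = 0.00695). All 6 group means of Svs6, 3.27 to 3.69 on the log2 scale, lay under the lowest 5% limit of 3.77, and it passed in no single strain. At the edges Wfdc12 read -0.15 ± 0.07 (adjusted p = 0.131), Wfdc15a 0.06 ± 0.06 (adjusted p = 0.487) and Matn4, a cartilage matrix protein, -0.11 ± 0.06 (adjusted p = 0.201), none of which passed. Next to Lcn8, the epididymal lipocalin Lcn5 read 0.03 ± 0.06 (adjusted p = 0.795). All 6 group means of Lcn5, 3.85 to 3.95 on the log2 scale, lay near the lowest 5% limit of 3.77, so a fall could hardly show. The ficolin gene Fcna fell by 1.30 ± 0.31 (adjusted p = 0.00618) in the average of strains and passed in no single strain. Of the 6 genes nearest to Pate4 only Hyls1 was measured, at 0.07 ± 0.06 (adjusted p = 0.433).

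**Figure D4:**
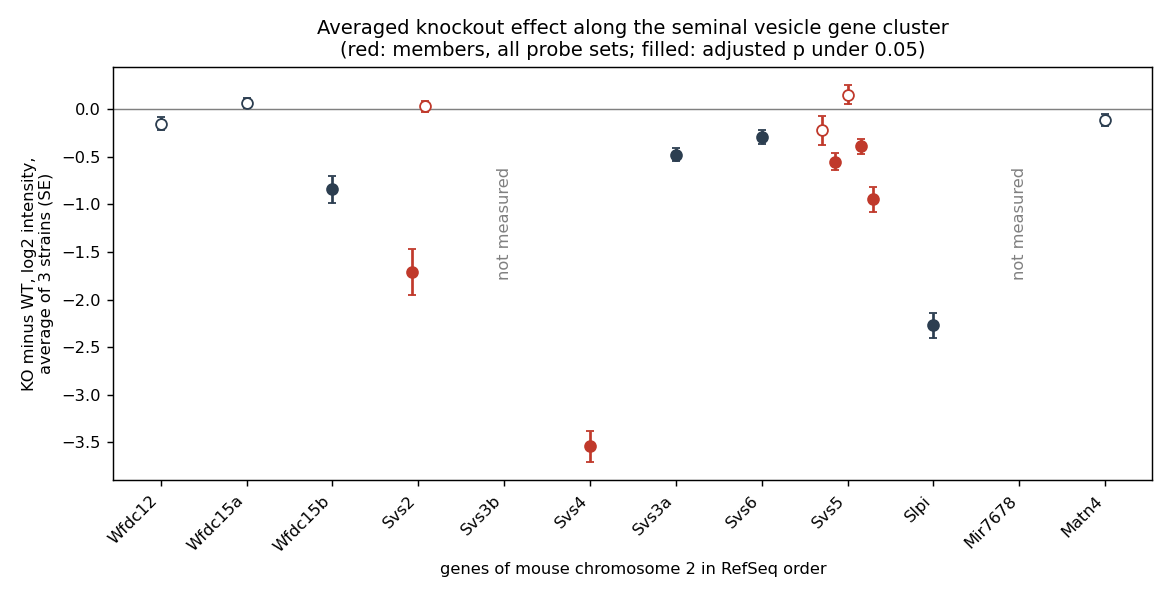
Averaged KO minus WT difference on the log2 scale (vertical axis, points with SE) for the genes of the seminal vesicle cluster in RefSeq order on chromosome 2. Members are in red with all their probe sets, filled points passed limma at an adjusted p under 0.05. Svs4 (-3.54) and Slpi (-2.27) fell most, and Wfdc12, Wfdc15a and Matn4 at the edges did not pass.

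Other genes of the same organs and families were taken from 7 lists holding 84 genes, of which 43 had a probe set of a single symbol, each gene read by its brightest. In the average of strains 16 of the 43 were lower and 2 higher in KO mice and 25 did not pass, where 10.1% of all probe sets were lower and 10.5% higher, with a median log2 difference of -0.15 against 0.06 over all probe sets. Among other seminal vesicle genes 3 of 6 measured passed as lower: Spink1, a trypsin inhibitor of pancreas and seminal vesicle (log2 difference -2.255 ± 0.17 SE, limma adjusted p = 2.15e-08), Svs3a and the dim Svs6. Ceacam10, Spinkl and Sva read -0.26, -0.09 and 0.03 and did not pass. Of the protease inhibitors with WAP or Kunitz domains 3 of 10 fell, namely Slpi, Wfdc2 (-1.03 ± 0.13) and Wfdc15b, and Eppin, a sperm surface inhibitor of the epididymis, read -0.06 ± 0.07 without passing. Of the other Pate genes 1 of 3 fell, namely Pate6 (-1.37 ± 0.15, adjusted p = 2.05e-06).

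Lipocalins other than Lcn8 were the list with the largest share that fell, 5 of 8 measured, with a median of -0.78. They were Lcn2, an iron-siderophore carrier made by many epithelia (-1.97 ± 0.22, limma adjusted p = 2.34e-06), Lcn11 (-1.30 ± 0.13), Ptgds, a prostaglandin synthase also found in the epididymis (-1.21 ± 0.11), Lcn3 (-1.0 ± 0.12) and Lcn4. Lcn4 fell by 0.56 ± 0.10 by its brighter probe set, while its other probe set read 0.14 and did not pass. The lipocalins Lcn5, Lcn9 and Lcn12 read 0.03, -0.18 and -0.08 and did not pass, and Lcn5 was dim in every group. Of further epididymis genes 3 of 8 fell, the cystatin Cst12 (-1.35 ± 0.15), the membrane protein Adam7 (-0.52 ± 0.09) and Rnase10 (-0.25 ± 0.08), and the sterol carrier Npc2, which most cells express, rose by 0.22 ± 0.05 (adjusted p = 0.00675). Of prostate genes 0 of 5 passed as lower, a count too small to set against the share of 10.1%. Tmprss2, a membrane serine protease, rose by 0.33 ± 0.10 (adjusted p = 0.0231), and the plug-forming transglutaminase Tgm4 (-0.20 ± 0.09) and the androgen-regulated Pbsn (-0.01 ± 0.06) did not pass. Of the transcription factors of these organs Hoxb13 fell by 0.64 ± 0.10 (adjusted p = 0.000147), and Foxa1 (-0.22 ± 0.12) and Etv5 (0.18 ± 0.07) did not pass.

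**Figure D5:**
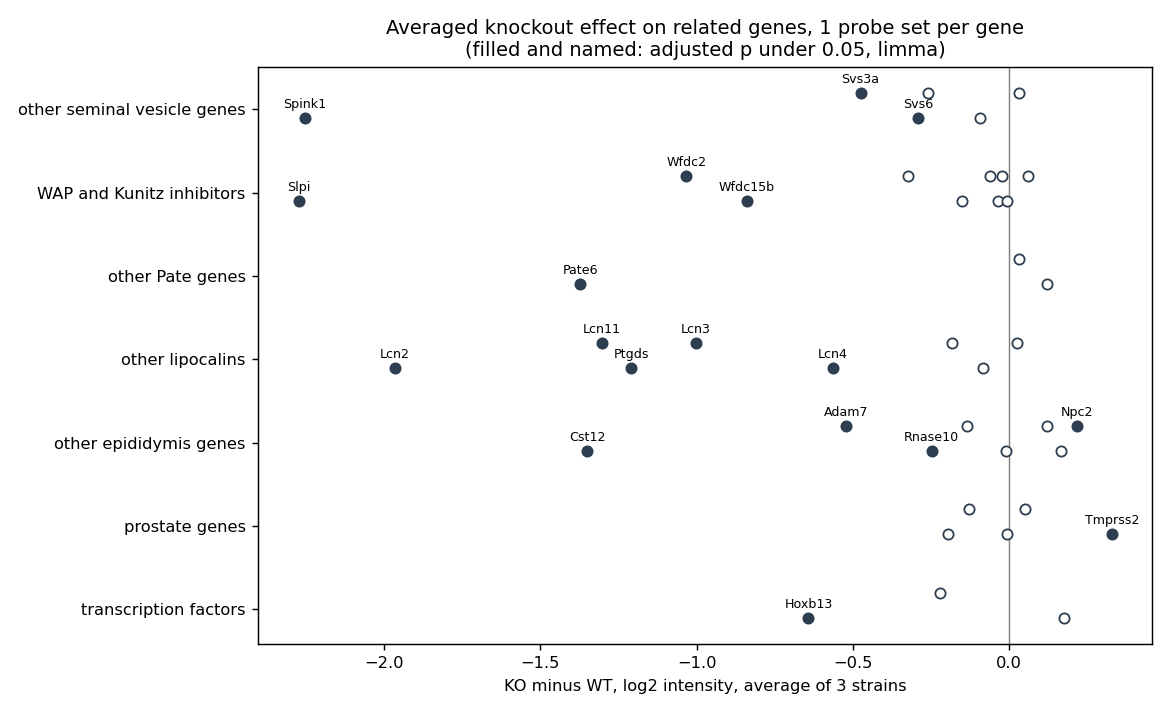
Averaged KO minus WT difference on the log2 scale (horizontal axis) for 43 related genes in 7 lists, 1 point per gene; filled, named points passed limma at an adjusted p under 0.05. Spink1 (-2.255), Slpi (-2.27) and Lcn2 (-1.97) lie farthest to the left, and Npc2 (0.22) and Tmprss2 (0.33) are the 2 genes that rose.

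The genes most like each member over the 20 arrays were found by Pearson's r of log2 values, a description only, since the arrays share the genotype difference and each r is the highest among many genes. Svs4 was most like the embryonic globin Hbb-y (r = 0.98), the receptor Gpr50 (0.98) and the stress hormone Crh (0.98). Svs2 by 1422427_a_at was most like Cst10 (0.95), Mt4 (0.95) and Tekt4 (0.94), Lcn8 like Crabp1, Myh3 and Cela3b (0.97 each), and Pate4 like Ano4 (0.94), Efcab10 (0.92) and Ctsq (0.92). The Svs5 probe set 1456124_x_at was most like Efcab10 (0.92), Clps (0.92) and Zp3 (0.91). When each value was taken as its deviation from the group mean, Hbb-y stayed among the 3 genes most like Svs4 (r = 0.80), behind Cstad (0.84) and Calcoco2 (0.83), and Cst10 stayed most like Svs2 (0.85). For Pate4 and Lcn8 the 3 most alike by deviations were different genes from those by level, among them 1700052I22Rik (0.92) for Pate4 and Mrps31 (0.90) for Lcn8.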

How the data were processed

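The deposited table holds 1 linear intensity per probe set and array, made with RMA by the authors per the submitters' processing notes, with no version or settings stated. RMA commonly scales arrays together, which can hide array-wide shifts. Per the labels' protocols the RNA was amplified in a pair of rounds before biotin labelling, which favours 3′ ends. No detection calls were used. Of 45101 probe sets 64 controls were left out and 45037 tested; the platform annotation gave 34945 of these 1 symbol, 932 several, and did not list 9160. RefSeq (GRCm38.p6) changed no member symbol. Groups came from the sample titles. Log2 values of all 20 arrays were fitted with limma 3.58.1 in R 4.3.3 (lmFit on 6 group means, then eBayes; 14 residual degrees of freedom). Contrasts were KO minus WT and between strains, with Benjamini-Hochberg adjustment over all probe sets at 0.05. No library depth exists for arrays; the number of mice limits precision. The code was tested on simulated data.

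The members and lists were chosen with earlier results of these data known. Named genes are all member probe sets, up to 4 genes per list that passed by size (others of a list complete its count and were named after their values were seen), the measured genes among the 3 nearest on each side of a member, and the 3 most alike genes. Same-numbered KO and WT mice were checked for shared deviations: r was 0.46 to 0.66 in BALB and 0.31 to 0.67 in NOD, where numbers were taken as pairs. In B6 r was 0.78, 0.72 and -0.13 for mice 1, 2 and 3, and there numbers were not taken as pairs. Same-numbered BALB and NOD mice also share a run of sample codes, so r there cannot tell pairing from run. Sample codes in the labels form runs, and 1 B6 WT mouse has none. Alternatives covered scaling, pseudocount, a dim filter, variance model, array weights, pairing, code run, the arrays fitted and leaving out each mouse.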

Additional observations from a re-analysis of the deposited data

How the results depend on the processing

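Over the alternatives run, the averaged falls of Svs4 (-3.67 to -2.78), Svs2 by 1422427_a_at (-1.88 to -0.92), Pate4 (-1.38 to -0.93), Lcn8 (-1.84 to -1.39) and Svs5 by 1456124_x_at (-1.03 to -0.67), 1419347_x_at (-0.59 to -0.34) and 1438616_x_at (-0.45 to -0.30) kept direction and call, as did Svs4 and Lcn8 in each strain and the absence of a called strain difference of the knockout effect. No result that passed its test changed sign. Among knockout effects that did not pass, Svs5 by 1419346_a_at in B6 ran from -0.15 to 0.18 and by 1427220_a_at in BALB from -0.19 to 0.01, and Svs2 by 1456188_at in B6 from -0.05 to 0.03. Differences between WT strains near 0 that did not pass also changed sign. A filter on dim probe sets left 2 of the 10 member probe sets, Svs4 and Lcn8, so it gave no value for the others.

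Calls near the threshold moved, for causes that were not tested. For Svs5 by 1419347_x_at in B6 (-0.53 as reported) the value passed with quantile normalization (-0.55), log2(value + 16) (-0.35), trended robust variances (-0.53), array weights (-0.47), code run as a random block (-0.49) and the strain's arrays alone (-0.53). Array weights also brought past the threshold, in NOD, Svs2 by 1422427_a_at (-1.38) and by 1456188_at (0.23) and Svs5 by 1438616_x_at (-0.32) and 1456124_x_at (-0.93), and in BALB Svs5 by 1419346_a_at (-0.77). Code run as a block did so for Svs5 by 1456124_x_at in NOD (-0.84). The B6 call of Svs5 by 1438616_x_at was lost with the code run (-0.41) and with the strain's arrays alone (-0.46). In the paired fit with the replicate block, Svs5 passed by 1419346_a_at in BALB (-0.61) and by 1456124_x_at in NOD (-0.84). It also passed by 1419346_a_at in the average (-0.22), which includes B6, where numbers were not taken as pairs. In B6 itself Svs5 passed by 1419347_x_at (-0.53), and the call of 1438616_x_at was lost (-0.46). The block changed no other member call.

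Chosen after seeing the data, leaving out the B6 WT mouse 2 and B6 KO mice 2 and 3 arrays with the lowest Gapdh 3′ minus 5′ difference ended the B6 calls of Svs2 by 1422427_a_at (-1.94, adjusted p = 0.212), Pate4 (-1.35, adjusted p = 0.116) and Svs5 by 1438616_x_at (-0.64) and 1456124_x_at (-1.15), with fewer mice left. Leaving out each mouse in turn gave knockout effects that crossed the threshold for Svs5 by 1438616_x_at in B6 (-0.51 to -0.34) and BALB (-0.45 to -0.26), 1456124_x_at in B6 (-1.02 to -0.81) and NOD (-1.09 to -0.66), 1419347_x_at in B6 (-0.62 to -0.48) and 1419346_a_at in BALB (-0.89 to -0.46), for Svs2 by 1422427_a_at in NOD (-1.61 to -0.82) and for Pate4 in NOD (-1.25 to -1.02). Between WT mice, Svs2 by 1422427_a_at crossed it for NOD minus BALB without BALB WT mouse 4 (-1.37).

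Counts over all probe sets moved by more than 1.5 times in these fits: lower in the average 7203 with the replicate block, against 4537; lower in B6 5552 with array weights, 4978 with the block and 1011 without the 3 B6 arrays, against 2495; lower in BALB 3896 with the block, against 1920; lower in NOD 3405 with array weights and 2912 with the block, against 1264. Probe sets past the test of a strain difference numbered 1702 with array weights, 1284 with the block, 404 with the code run, 93 without the 3 B6 arrays and 109 to 223 when each mouse was left out, against 196.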
